A study of Mus musculus with 6 samples.

Results

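The genes described here encode the machinery that puts peptides on MHC class I molecules: the heavy chains H2-K1 and H2-D1 and the light chain B2m, the peptide transporter subunits Tap1 and Tap2 with the chaperone Tapbp (tapasin), and the immunoproteasome subunits Psmb8, Psmb9 and Psmb10. They were chosen by gene symbol, and all 9 were found among the 16108 genes of the deposited table of FPKM values (a level per transcript length and library total). The cells were RAW264.7, an established macrophage-like line derived from a BALB/c mouse, grown on acoustic devices. In the acoustics-off group (off group, 3 libraries) the device stayed undriven for 48 h, and in the acoustics-on group (on group, 3 libraries) it was driven for 48 h at 18 V peak to peak and 5 kHz. Both groups were on the device for the same time. The design also names a petri dish group, which was not analysed here. Whether libraries of a group are separate cultures is not given, so p-values here reflect a spread that could be technical.

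Class I molecules show fragments of a cell's own proteins to cytotoxic T cells. Proteasomes cut proteins into peptides, the Tap1-Tap2 transporter moves the peptides into the endoplasmic reticulum, tapasin holds an empty heavy chain and B2m next to the transporter until a peptide is bound, and the loaded complex goes to the surface. The immunoproteasome is a form of the 20S proteasome in which Psmb8, Psmb9 and Psmb10 take the places of the constitutive catalytic subunits Psmb5, Psmb6 and Psmb7. Interferons are the best known inducers of all of these genes in macrophages.

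Of these genes, 7 lie in the mouse MHC on chromosome 17 and were placed with GENCODE M21 (GRCm38). Psmb9 (34181987 to 34187764), Tap1 (34187553 to 34197225), Psmb8 (34197721 to 34201454) and Tap2 (34203527 to 34216321) follow each other within 34.3 kb. H2-K1 (33996017 to 34000347) and Tapbp (33915899 to 33929292) lie to 1 side of them and H2-D1 (35262730 to 35267499) to the other. B2m is on chromosome 2 (122147686 to 122153083) and Psmb10 on chromosome 8 (105935735 to 105938444).

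The promoters of the class I chains and the interval between Psmb9 and Tap1 are shown because these genes are described first below and because Psmb9 and Tap1 start next to each other. They are RefSeq sequences of GRCm38.p6, ending at the base before the annotated start, 5′ to 3′ on the gene's strand (the interval on the plus strand). Capitals mark matches to the κB motif, the binding sequence of NF-κB, or to the interferon-stimulated response element (searched as GAAA, any 2 bases, GAAA), and in the interval the CCAAT box (CCAAT), each searched on both strands. The capitals of H2-K1 and H2-D1 hold 2 overlapping κB matches.
H2-K1, chr17:34000348-34000597, minus strand: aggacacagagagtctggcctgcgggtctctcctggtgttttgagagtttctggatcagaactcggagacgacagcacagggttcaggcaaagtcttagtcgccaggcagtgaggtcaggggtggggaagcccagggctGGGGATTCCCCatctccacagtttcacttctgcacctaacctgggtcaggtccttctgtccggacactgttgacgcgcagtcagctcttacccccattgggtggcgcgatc
H2-D1, chr17:35262844-35263093, plus strand: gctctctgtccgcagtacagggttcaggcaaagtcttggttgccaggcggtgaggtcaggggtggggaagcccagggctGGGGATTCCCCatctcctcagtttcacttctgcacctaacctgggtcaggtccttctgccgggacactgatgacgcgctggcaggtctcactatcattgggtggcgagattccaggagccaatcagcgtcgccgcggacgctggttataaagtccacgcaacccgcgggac
B2m, chr2:122147437-122147686, plus strand: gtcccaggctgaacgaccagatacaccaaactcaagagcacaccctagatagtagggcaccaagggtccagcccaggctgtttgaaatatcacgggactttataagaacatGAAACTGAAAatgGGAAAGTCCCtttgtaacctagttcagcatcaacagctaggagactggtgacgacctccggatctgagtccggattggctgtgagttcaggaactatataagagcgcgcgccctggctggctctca
Psmb9-Tap1 interval, chr17:34187331-34187555: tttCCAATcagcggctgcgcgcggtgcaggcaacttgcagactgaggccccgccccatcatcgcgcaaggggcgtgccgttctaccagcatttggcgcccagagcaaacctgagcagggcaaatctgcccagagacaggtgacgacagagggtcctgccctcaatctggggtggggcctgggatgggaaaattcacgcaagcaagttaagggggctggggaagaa

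RefSeq windows were matched for 8 of the 9 genes (all but Tap2). The κB motif was matched in 3 of the 8 (H2-K1, H2-D1 and B2m), against 3.9% of all 32817 promoter windows of the same 250 bases. The exact pattern searched for the interferon-stimulated response element was matched in B2m alone, against 2.97% of all windows. Looser forms of that element were not searched, so a window without a match may still hold one. The H2-K1 and H2-D1 windows share a run of 47 identical bases that holds the κB match. The RefSeq starts of Psmb9 and Tap1 lie 225 bases apart on opposite strands, so both genes read away from the interval shown. Gene models of GENCODE M21 start further upstream than RefSeq for 7 of the 8 genes (all but H2-K1), for Tap1 and B2m by 3 bases or fewer. The windows of H2-D1, Tapbp, Psmb8 and Psmb9 and the interval therefore lie within those models, and the Psmb10 window does so in part. A match is a description of the letters, not of a bound site.

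No gene of the 9 passed the test of acoustics-on against acoustics-off (limma on log2(FPKM + 1), Benjamini-Hochberg adjusted p under 0.05 over all 11664 genes tested). This 0 of 9 stands beside 2.07% of all tested genes called in either direction (1.5% higher and 0.574% lower). At an unadjusted p under 0.05 the count was 1 higher (H2-K1) and 0 lower, against 10.5% of all tested genes higher and 9.16% lower. In the authors' deposited table, H2-K1 was also the single gene of the 9 with an adjusted p under 0.05, where 5.08% of all genes with an adjusted p were called higher. All 9 had a positive log2 difference, with a median of 0.29, against 47.0% of all tested genes positive and a median of -0.03 over them. When length and GC trends (next paragraph) were divided out, 5 of the 9 were positive and 4 negative (B2m, Tapbp, Psmb8 and Psmb10), with a median of 0.13, against 45.3% of all tested genes positive. The medians of the 9 above the acoustics-off mean were 0.54, 0.25 and 0.01 in acoustics-on replicates 1, 2 and 3. The difference lay in acoustics-on replicates 1 and 2, with replicate 3 near the acoustics-off level at the median.

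The libraries differed in a trend with transcript length that touches these genes. Among tested protein-coding genes, the 2092 with the shortest transcripts (a quintile) had median log2 differences from the acoustics-off mean of 0.55, 0.18 and -0.01 in acoustics-on replicates 1, 2 and 3, and the quintile with the longest had -0.58, -0.19 and 0.01. H2-K1, B2m, Psmb8 and Psmb10 fall in the shortest quintile (up to 1946 bases) and H2-D1 in the next. Relative depths, read from the steps of the low values, lay between 0.96 and 1.075. All 10 macrophage markers checked were measured and passed the filter on low values, and their summed level was 28202 to 30429 FPKM in the off group and 20011 to 26925 FPKM in the on group; their part in the results was not tested. Lyz2, at 24695 FPKM on average in the off group, made up most of that sum. By log2 difference, 7 of the 10 markers were lower and 3 (Cd14, Fcgr1 and Spi1) higher in the on group, and none passed the limma test. The authors' own comparison called Csf1r lower (log2 fold change -0.82, authors' adjusted p = 0.0044) and no other marker of the 10. Groups did not overlap, with acoustics-on lower, for 6 of the 10, and with acoustics-on higher for 0. Over all tested genes these shares were 17.7% and 17.1%. Of 20 markers of other cell types, 2 passed the filter (Pdgfrb and Zbtb46), with summed levels of all 20 of 3.68 to 5.41 FPKM in the off group and 3.22 to 4.33 FPKM in the on group. Fewer cells of a type and less RNA per cell cannot be told apart in these bulk samples.

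H2-K1, a classical class I heavy chain, had 79.6, 89.2 and 78.9 FPKM in acoustics-off replicates 1, 2 and 3 and 122.9, 118.9 and 106.4 FPKM in acoustics-on replicates 1, 2 and 3. All 3 acoustics-on libraries lay above all 3 acoustics-off libraries. The means were 82.6 ± 5.77 and 116.1 ± 8.59 FPKM (SD, n = 3), a log2 difference of 0.49 (SE 0.13, limma adjusted p = 0.11). The 95% interval of the difference ran from 1.14-fold to 1.72-fold on the FPKM + 1 scale before adjustment for the number of genes. In the authors' deposited table the log2 fold change was 0.49 (SE 0.15, adjusted p = 0.016), from a mean of 5562 normalised reads, for which counting error alone is 1.34% of the level. The call turned on acoustics-on replicate 1: without it the log2 difference was 0.44 and passed (limma adjusted p = 0.041). Leaving out that library also raised the calls over all genes, from 1.5% to 4.34% higher and from 0.574% to 3.11% lower, and this holds for each gene below that passed without it. Across the other 5 libraries left out in turn H2-K1 did not pass. With length and GC trends divided out its log2 difference was 0.29, and it did not pass.

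H2-D1, the other heavy chain measured, had 654.7, 688.5 and 664.6 FPKM in the off group and 919.9, 869.8 and 672.4 FPKM in the on group. Acoustics-on replicates 1 and 2 were above all acoustics-off libraries, while replicate 3 lay among them. The log2 difference was 0.28 (SE 0.17, limma adjusted p = 0.37, interval 0.92-fold to 1.61-fold), and 0.13 with length and GC trends divided out. Per kilobase, H2-D1 was the more abundant heavy chain in each library, and H2-K1 was 12.3% ± 0.56 of it in the off group and 14.3% ± 1.34 in the on group. The log2 ratio of H2-K1 to H2-D1 was higher in each acoustics-on library than in any acoustics-off library, by 0.20 on average (exact permutation test, two-sided p = 0.1, the smallest that 3 against 3 can give, adjusted p = 0.35 over the 7 ratios computed). With length and GC trends divided out, these ratios overlapped between the groups.

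The 2 heavy chain genes resemble each other and other class I genes, which limits how exactly reads can be assigned. Of the distinct 31-base stretches in the longest H2-K1 transcript of GENCODE M21, 22.5% also occur in transcripts of another gene (16.2% in H2-D1), and for H2-D1 the share was 27.7% (12.9% in H2-K1). For 75-base stretches the shares were 1.33% and 7.1%. The reference assembly is from C57BL/6J, which carries other alleles of H2-K1 and H2-D1 than BALB/c. How many reads of the BALB/c alleles were lost or shifted between the heavy chain genes was not tested. H2-L, listed with the other class I genes, was not among the genes measured, and whether its reads were assigned to H2-D1 was not tested. Ratios that use the heavy chains carry these limits.

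B2m, the light chain of every class I molecule, was the most abundant of the 9 genes. It had 1624, 1626 and 1600 FPKM in the off group and 2351, 1977 and 1742 FPKM in the on group. The groups did not overlap, and the acoustics-off libraries lay within a narrow range (1616 ± 14.5 against 2023 ± 307 FPKM, SD, n = 3). The log2 difference was 0.31 (SE 0.18, limma adjusted p = 0.34, interval 0.93-fold to 1.66-fold). With length and GC trends divided out it was -0.02 (adjusted p = 0.91), so the positive sign of B2m, whose longest transcript has 860 bases, did not hold under that correction. The ratio of B2m to the summed heavy chains was 2.15 ± 0.06 in the off group and 2.16 ± 0.14 in the on group (log2 difference 0.01, exact permutation test, p = 0.9).

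**Figure D1:**
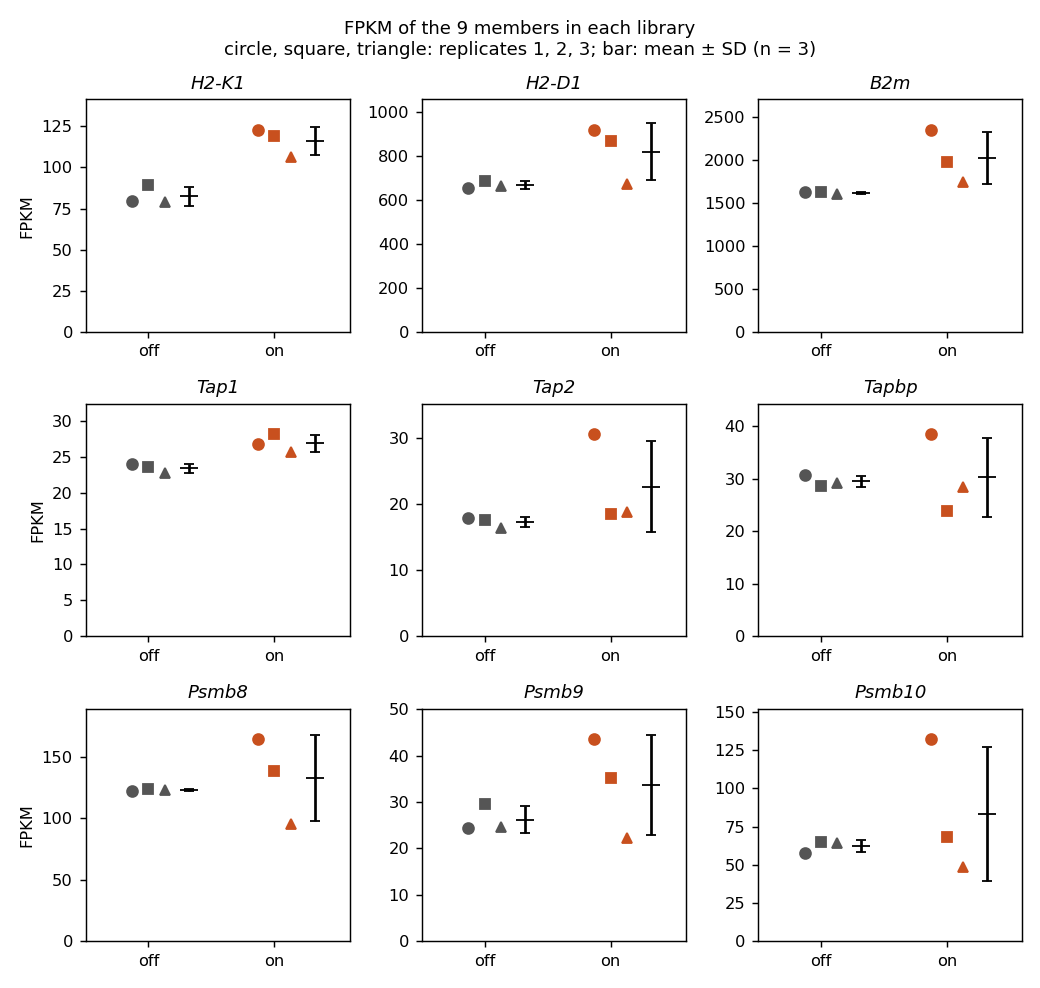
FPKM of the 9 genes (vertical axes from 0, a scale of its own for each gene) in the 3 acoustics-off libraries (grey) and 3 acoustics-on libraries (orange), with circles, squares and triangles for replicates 1, 2 and 3 and bars for the mean ± SD. H2-K1, B2m, Tap1 and Tap2 show groups that do not overlap, while Psmb8, Psmb9 and Psmb10 spread from below to above the acoustics-off libraries in the on group.

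Groups did not overlap, with acoustics-on higher, for 4 of the 9 genes (H2-K1, B2m, Tap1 and Tap2), and in no gene with acoustics-on lower. Over all tested genes, 17.1% had such groups with acoustics-on higher and 17.7% with acoustics-on lower.

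Tap1, which forms the peptide pump with Tap2, had 23.96, 23.5 and 22.7 FPKM in the off group and 26.7, 28.1 and 25.7 FPKM in the on group. The shift was small and present in each acoustics-on library, with a log2 difference of 0.19 (SE 0.11, limma adjusted p = 0.35, interval 0.955-fold to 1.36-fold). Tap1 was the member with the smallest standard error. It lies in the second longest quintile by transcript length, and under the length and GC correction its log2 difference was 0.28 (adjusted p = 0.14).

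Tap2, the partner of Tap1 in the pump, had 17.9, 17.6 and 16.4 FPKM in the off group and 30.6, 18.5 and 18.8 FPKM in the on group. Acoustics-on replicate 1 stood apart, and replicates 2 and 3 were just above the highest acoustics-off library. The log2 difference of 0.33 (SE 0.20, limma adjusted p = 0.37) was 0.10 without that library (adjusted p = 0.44). The Tap1 to Tap2 ratio was 1.34, 1.34 and 1.39 in the off group, 0.87 in acoustics-on replicate 1, and 1.52 and 1.36 in acoustics-on replicates 2 and 3. The transporter subunits therefore did not keep a fixed ratio in acoustics-on replicate 1. Of the 31-base stretches of Tap2, 15.5% also occur in transcripts of other annotated genes, most of them in Gm15821 (12.1%).

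Tapbp, the tapasin gene that bridges transporter and heavy chain, had 30.7, 28.6 and 29.1 FPKM in the off group and 38.4, 23.8 and 28.4 FPKM in the on group. The acoustics-on libraries lay above, below and just under the acoustics-off libraries, and the log2 difference was 0.01 (SE 0.18, limma adjusted p = 0.98, interval 0.75-fold to 1.35-fold). Its sign changed under 8 of 19 alternatives. Of its 31-base stretches, 23.9% occur in other annotated genes, 20.9% in Gm19412.

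**Figure D2:**
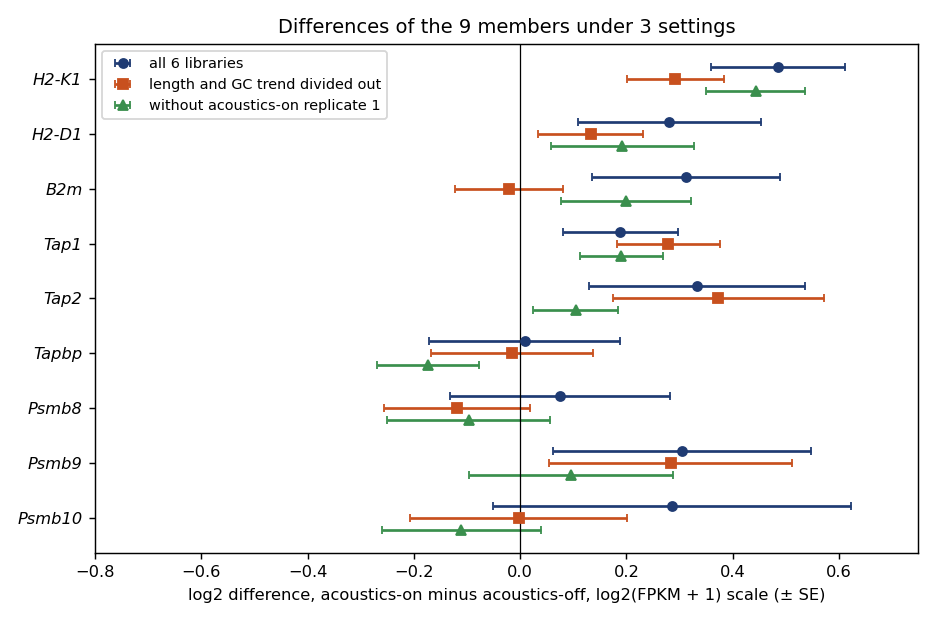
Log2 difference of acoustics-on minus acoustics-off for each gene on the log2(FPKM + 1) scale, with bars of 1 SE, for all 6 libraries (blue circles), with length and GC trends divided out (orange squares) and without acoustics-on replicate 1 (green triangles). H2-K1 stays between 0.29 and 0.49 in these settings, while Psmb8 and Psmb10 go from above 0 to below 0.

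The immunoproteasome genes varied among the acoustics-on libraries more than between the groups. Psmb8, which replaces the chymotrypsin-like subunit Psmb5, had 122.4, 124.0 and 123.5 FPKM in the off group and 165.0, 139.2 and 95.4 FPKM in the on group. The acoustics-off libraries were nearly equal, and the acoustics-on libraries lay on both sides of them (log2 difference 0.07, SE 0.21, limma adjusted p = 0.84, interval 0.75-fold to 1.48-fold).

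Psmb9, which replaces Psmb6, had 24.3, 29.5 and 24.7 FPKM in the off group and 43.6, 35.1 and 22.2 FPKM in the on group. Replicates 1 and 2 were above and replicate 3 below the acoustics-off libraries, with a log2 difference of 0.30 (SE 0.24, limma adjusted p = 0.47, interval 0.83-fold to 1.84-fold). It was 0.10 without acoustics-on replicate 1 and 0.57 without replicate 3. In GENCODE M21, Psmb9 and Tap1 overlap by 212 bases on opposite strands, and no source used here says whether counting used the strand.

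Psmb10, which replaces Psmb7, had 57.4, 65.0 and 64.4 FPKM in the off group and 132.5, 68.4 and 48.4 FPKM in the on group. Acoustics-on replicate 1 was far above the acoustics-off mean of 62.3 ± 4.22 FPKM, and replicate 3 was below it. The log2 difference was 0.29 (SE 0.34, limma adjusted p = 0.62, interval 0.70-fold to 2.12-fold), and it was -0.11 without acoustics-on replicate 1 and 0.61 without replicate 3. In acoustics-on replicate 3 all of Psmb8, Psmb9 and Psmb10 were under the lowest acoustics-off library, at log2 differences of -0.37, -0.22 and -0.36 from the acoustics-off mean.

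The constitutive subunits that these proteins replace were higher in each acoustics-on library. Psmb5 had 108.2, 122.8 and 113.8 FPKM in the off group and 329.5, 210.8 and 195.5 FPKM in the on group (log2 difference 1.05, SE 0.21, limma adjusted p = 0.066). It passed without acoustics-on replicate 1 (log2 difference 0.82, adjusted p = 0.0067) and under the length and GC correction (0.70, adjusted p = 0.014). Psmb6 averaged 348.5 ± 21.9 and 553.2 ± 209.1 FPKM (log2 difference 0.60, adjusted p = 0.26), and Psmb7 averaged 122.5 ± 4.88 and 188.1 ± 60.8 FPKM (0.57, adjusted p = 0.23). Psmb6 was at 0.25 under that correction and at 0.31 without acoustics-on replicate 1, and Psmb7 at 0.51 and 0.32, and neither passed in these settings. In none of these 3 genes did the groups overlap, against 17.1% of all tested genes with such groups and acoustics-on higher. Psmb5 and Psmb6 fall in the shortest quintile of transcripts.

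A ratio of genes within a library does not depend on how libraries are scaled to each other. The Psmb8 to Psmb5 ratio was 1.13, 1.01 and 1.09 in the off group and 0.50, 0.66 and 0.49 in the on group. Transcripts of the inducible subunit were thus about as abundant per kilobase as those of its constitutive counterpart in the off group. They were less abundant than those of the counterpart in every acoustics-on library. Psmb8 itself averaged 123.3 FPKM in the off group and 133.2 FPKM in the on group, and Psmb5 114.9 and 245.3 FPKM. The log2 ratio differed by -0.97 (exact permutation test, two-sided p = 0.1, the smallest this design allows, adjusted p = 0.35 over 7 ratios). The difference stayed between -1.11 and -0.82 over 10 alternatives, and under the length and GC correction it was -0.82 with groups that again did not overlap.

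The other pairs differed less. The Psmb9 to Psmb6 ratio was 0.073, 0.079 and 0.073 in the off group and 0.055, 0.078 and 0.053 in the on group, so replicate 2 overlapped the acoustics-off libraries (log2 difference -0.30, exact permutation p = 0.3). Under the length and GC correction the difference was 0.03. The Psmb10 to Psmb7 ratio was 0.49, 0.53 and 0.51 in the off group and 0.51, 0.45 and 0.32 in the on group (log2 difference -0.28, exact permutation p = 0.3). With the correction it was -0.51 and the groups did not overlap (exact permutation p = 0.1). The correction took Psmb7 at 2849 bases and Psmb10 at 1311 bases, the lengths of their longest transcripts. In acoustics-on replicate 1 it moved Psmb10 from 132.5 to 94.7 FPKM and Psmb7 from 258.4 to 268.1 FPKM. The corrected ratios depend on the lengths assigned, and whether these transcripts are those expressed was not tested.

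**Figure D3:**
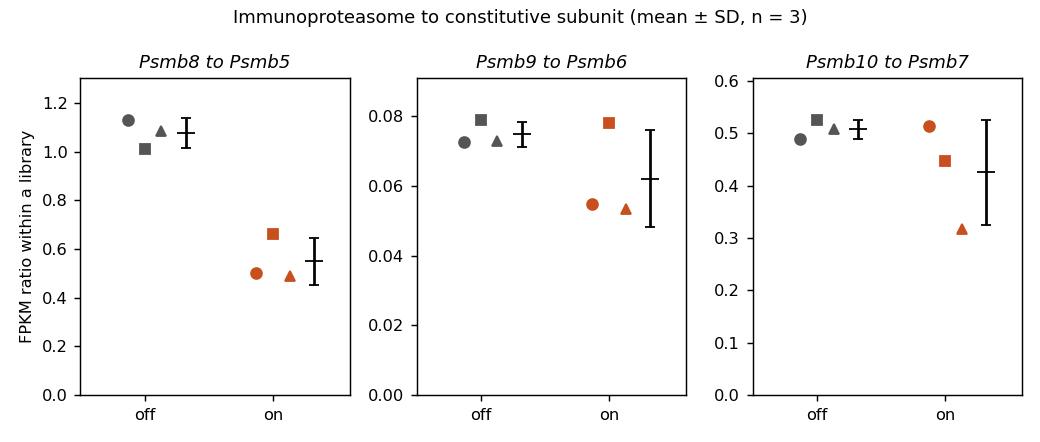
FPKM of each immunoproteasome subunit over the FPKM of the constitutive subunit it replaces, within each library (grey, acoustics-off; orange, acoustics-on; circles, squares and triangles are replicates 1, 2 and 3; bars are mean ± SD). The Psmb8 to Psmb5 ratio lies between 1.01 and 1.13 in the off group and between 0.49 and 0.66 in the on group, while the other ratios overlap between the groups.

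The remaining subunits of the 20S proteasome core gave the setting for these ratios. Of 11 structural subunits, 0 passed in either direction (6 higher and 0 lower at an unadjusted limma p under 0.05, and 1 higher in the authors' deposited table). Over all tested genes, 10.5% were higher at that unadjusted p. The authors called 5.08% of all genes with an adjusted p higher. All 11 log2 differences were positive, with a median of 0.41. Once length and GC trends were divided out, 9 were positive and 2 negative, with a median of 0.083. Within the on group, that median ran from 0.14 (replicate 3) through 0.36 (replicate 2) to 0.73 (replicate 1). Psma3 averaged 100.4 ± 2.56 and 149.6 ± 30.2 FPKM (log2 difference 0.55, limma adjusted p = 0.15), and passed without acoustics-on replicate 1 (0.39, adjusted p = 0.029). Psmb3, Psma2 and Psma6 had log2 differences of 0.72, 0.49 and 0.42 (adjusted p = 0.19, 0.20 and 0.23). Of the 11, 8 fall in the shortest quintile of transcripts. Under the length and GC correction Psma6 was at 0.083 and Psmb3 at 0.45, while Psma2 was at 0.44 and Psma3 at 0.49.

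Of 10 genes for proteasome activators and assembly factors, 0 passed (3 higher and 0 lower at an unadjusted p under 0.05, and 1 higher in the authors' deposited table). Over all tested genes, 10.5% were higher and 9.16% lower at that unadjusted p. The authors called 5.08% of all genes with an adjusted p higher. Psme2, a subunit of the PA28 activator that works with the immunoproteasome, had 161.0, 164.1 and 160.0 FPKM in the off group and 364.6, 220.7 and 214.9 FPKM in the on group. The groups did not overlap (log2 difference 0.67, SE 0.22, limma adjusted p = 0.18), and it passed without acoustics-on replicate 1 (0.43, adjusted p = 0.027). With length and GC trends divided out it was at 0.33 and did not pass (adjusted p = 0.11). Its partner Psme1 averaged 144.4 ± 2.24 and 168.2 ± 44.5 FPKM, with overlapping groups. Psme2b, a near copy of Psme2, had a log2 difference of 0.47 (adjusted p = 0.25), and how reads were split between these genes was not tested. The assembly factor genes Psmg2 and Psmg3 had log2 differences of 0.51 and 0.50 (adjusted p = 0.23 and 0.30). Under the correction Psme2b was at 0.11 and Psmg2 at 0.23, and without acoustics-on replicate 1 Psmg3 was at 0.23.

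**Figure D4:**
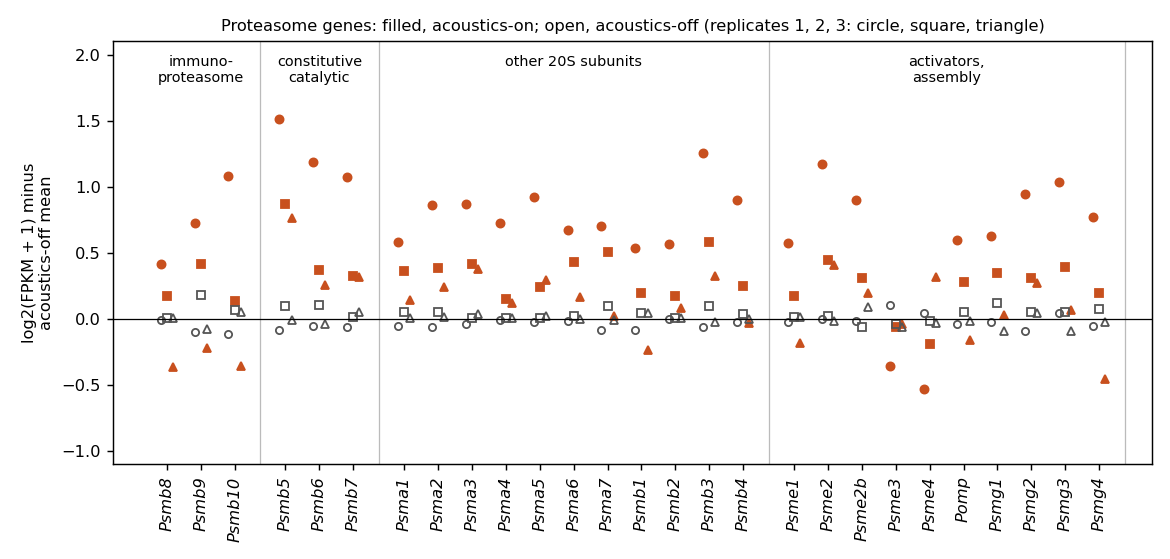
Log2(FPKM + 1) of each proteasome gene in each library as a difference from the acoustics-off mean (filled orange, acoustics-on; open grey, acoustics-off; circles, squares and triangles are replicates 1, 2 and 3). Psmb8, Psmb9 and Psmb10 fall below 0 in acoustics-on replicate 3, where Psmb5, Psmb6 and Psmb7 stay above 0. The fall is not particular to them: Psmb1 (-0.24), Psmb4 (-0.03), Psme1 (-0.19), Psme3 (-0.04), Pomp (-0.17) and Psmg4 (-0.46) are also below 0 in that library.

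The wider loading pathway was taken from a list of 19 symbols for chaperones, peptide trimming enzymes and the translocon, of which 17 were tested. None passed (1 higher and 0 lower at an unadjusted p under 0.05, and 0 in the authors' deposited table), and the median log2 difference was -0.07. Over all tested genes, 10.5% were higher and 9.16% lower at that unadjusted p. The authors called 5.08% of all genes with an adjusted p higher and 2.49% lower. The chaperone calreticulin, Calr, which joins tapasin in the loading complex, averaged 507.4 ± 11.4 and 679.9 ± 94.6 FPKM (log2 difference 0.41, limma adjusted p = 0.22). Pdia3, the oxidoreductase of that complex, averaged 260.2 ± 11.2 and 319.1 ± 7.14 FPKM (0.29, adjusted p = 0.26). The tapasin relative Tapbpl averaged 3.00 ± 0.30 and 3.84 ± 0.36 FPKM (0.28, adjusted p = 0.29). Erap1, the aminopeptidase that trims peptides inside the endoplasmic reticulum, averaged 17.3 ± 0.90 and 13.1 ± 3.08 FPKM (-0.41, adjusted p = 0.27). For Calr, Pdia3 and Tapbpl all acoustics-on libraries were above the acoustics-off libraries, and for Erap1 all were below; the list held 5 genes of the former kind and 1 of the latter, against 17.1% and 17.7% of all tested genes. Under the length and GC correction Erap1 was at -0.20 and Calr at 0.26.

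Of 26 other class I genes listed, 17 were tested and 0 passed (6 higher and 0 lower at an unadjusted p under 0.05), while 3 were called higher in the authors' deposited table (H2-Q1, H2-Q7 and H2-M2). The authors called 5.08% of all genes with an adjusted p higher. Groups did not overlap, with acoustics-on higher, in 8 of the 17 (17.1% over all tested genes), and 10.5% of all tested genes were higher at an unadjusted p under 0.05. H2-Q1 had 5.80, 6.63 and 5.98 FPKM in the off group and 10.2, 9.44 and 8.79 FPKM in the on group (log2 difference 0.55, SE 0.13, limma adjusted p = 0.086). It passed without acoustics-on replicate 1 (0.50, adjusted p = 0.034) and under the length and GC correction (0.52, adjusted p = 0.043). H2-Q7, which encodes a surface class I-like protein, averaged 8.64 ± 0.20 and 13.6 ± 2.27 FPKM (0.59, adjusted p = 0.10), and passed without acoustics-on replicate 1 (0.48, adjusted p = 0.045). H2-Q5 averaged 16.8 ± 1.71 and 22.2 ± 0.075 FPKM (0.39, adjusted p = 0.16), and was at 0.092 under that correction (adjusted p = 0.77). H2-M2 was low, at 0.18 ± 0.032 and 1.01 ± 0.47 FPKM (0.74, adjusted p = 0.094). H2-Q1 shares 31-base and 75-base stretches with H2-D1, so its values are uncertain in the same way.

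Of 26 regulators of class I genes, 25 were tested and 0 passed (1 higher and 5 lower at an unadjusted p under 0.05, and 0 higher and 2 lower in the authors' deposited table, where 2.49% of genes were called lower); 9.16% of all tested genes were lower at that unadjusted p. Nlrc5, the class I transactivator, had 2.93, 2.83 and 2.60 FPKM in the off group and 2.44, 2.93 and 5.44 FPKM in the on group, with its single high value in acoustics-on replicate 3 (log2 difference 0.23, SE 0.24, limma adjusted p = 0.58). Irf1, a transcription factor that binds interferon response elements, averaged 15.4 ± 0.92 and 13.1 ± 2.28 FPKM (-0.23, adjusted p = 0.40). Nlrc5 and Irf1 are named for their role and were outside the rule for named genes.

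The regulators named next, those with the smallest p, were all lower in the on group, with no overlap between groups. Of the 25 regulators tested, 10 had groups that did not overlap with acoustics-on lower, and 1 with acoustics-on higher. Over all tested genes, 17.7% had such groups with acoustics-on lower and 17.1% with acoustics-on higher. The macrophage transcription factor gene Irf8 averaged 115.7 ± 2.24 and 77.0 ± 14.4 FPKM (log2 difference -0.60, limma adjusted p = 0.11). The interferon gamma receptor gene Ifngr1 averaged 70.3 ± 1.28 and 43.3 ± 12.2 FPKM (-0.72, adjusted p = 0.13), and the type I interferon receptor gene Ifnar1 averaged 51.0 ± 0.76 and 32.4 ± 8.77 FPKM (-0.67, adjusted p = 0.16). Irf2 averaged 69.5 ± 3.11 and 40.2 ± 15.8 FPKM (-0.86, adjusted p = 0.20). Single libraries decided these calls: Ifnar1 and Irf2 passed without acoustics-on replicate 1 (-0.45 and -0.49, adjusted p = 0.032 and 0.023), and Irf8 and Ifngr1 passed without acoustics-on replicate 2 (-0.74 and -0.93, adjusted p = 0.041 and 0.027). Leaving out acoustics-on replicate 2 also raised the share of all genes called lower, from 0.574% to 1.17%. Ifngr1 also passed once length and GC trends were divided out (-0.89, adjusted p = 0.049). The regulator with the next smallest p after Irf2 was Irf9, which was higher in the on group, also with no overlap. Irf9 averaged 14.4 ± 0.77 and 19.2 ± 2.50 FPKM (log2 difference 0.38, limma adjusted p = 0.20). It was outside the rule for named genes.

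Likeness of profiles was measured as the root mean square difference of log2 deviations from the acoustics-off mean over the 6 libraries, as a description. Among the 9 genes the closest pair was H2-D1 and B2m, at 0.07, and the nearest to H2-K1 was also B2m, at 0.15. Psmb10 was nearest to Psmb9, at 0.21, and Tapbp was 0.23 from its nearest gene, Psmb8. The mean profile of the 9 was -0.02, 0.04 and -0.03 in acoustics-off replicates 1, 2 and 3 and 0.57, 0.22 and -0.03 in acoustics-on replicates 1, 2 and 3. Of 8142 other tested genes with a mean of at least 5 FPKM, the nearest to it were Bcap31, Zc3hc1, Cd81, Slc25a11 and Cetn3, at 0.02 to 0.03. Bcap31, which encodes an endoplasmic reticulum membrane protein, had 116.2, 116.6 and 113.1 FPKM in the off group and 175.8, 132.2 and 113.2 FPKM in the on group (limma adjusted p = 0.42). This order, highest in acoustics-on replicate 1 and at the acoustics-off level in replicate 3, is also that of the median of the shortest quintile of transcripts given above.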

How the data were processed

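Libraries from 3 acoustics-off and 3 acoustics-on samples were compared. The authors deposited FPKM per gene and library; counts per library were not used here. The deposited table of the authors' own comparison holds a signal (the mean normalised count of a gene), a log2 fold change and its error, a score, and p-values before and after adjustment. The authors' tools, per the submitters' processing notes, include DESeq2 1.38.2, Salmon 1.4.0, STAR 2.7.11 and Trim Galore 0.6.8, on GRCm38, with no order or settings. The labels give a ribosomal RNA depletion kit and also polyA RNA.

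Genes with at least 0.5 FPKM in at least 3 libraries (11664 of 16108) were tested with limma 3.58.1 in R 4.3.3 on log2(FPKM + 1), with a trended robust prior, no replicate term and Benjamini-Hochberg adjustment over all of them at 0.05. This scale compresses differences of weakly expressed genes. The test was checked on simulated data. Low values were multiplied by the authors' mean count over mean FPKM and by a factor fitted to each library, its relative depth. The factor chosen, among those tried, brought the most values within 0.05 of a whole number. It did so for 56.6% to 66.8% of values under 15, against a median of 6.80% to 7.29% over the factors tried. Relative depth was thus read, but reads were not recovered. Ratios within a library were compared with exact permutation tests over samples.

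The members and lists were chosen with earlier results of these data known. Named genes were the 9 members, up to 4 genes with the smallest p of each of 6 pathway lists, and the 5 nearest profiles. The alternatives were other pseudocounts, filters and scalings, a replicate term, library weights (gene by gene, chosen after the default estimate was seen not to converge), no robust prior, each library left out, and a length and GC correction. That correction divided out a smooth trend (loess, span 0.5), library by library, on length and GC content of the longest GENCODE M21 transcript, fitted to protein-coding genes with a mean of at least 1 FPKM. Whether the longest transcript of a gene is the form expressed was not tested. Corrected values, corrected ratios and length quintiles carry that limit. The labels do not say whether equal replicate numbers mark paired samples. Same-numbered deviations from the group means correlated at -0.073, -0.020 and -0.0039, and differently numbered ones at -0.12 to 0.12. These values cannot decide whether the numbers pair the samples, because the deviations also carry the trend with transcript length of single libraries.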

Additional observations from a re-analysis of the deposited data

How the results depend on the processing

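Over 19 alternatives, 149 of 171 values of the 9 genes kept their sign and their side of the threshold, 19 changed sign without passing, and 3, all of H2-K1, passed where the main value had not. H2-K1 passed with library weights (log2 difference 0.50, adjusted p = 0.0097), without acoustics-on replicate 1 (0.44) and with that library left out and the length and GC correction (0.34, adjusted p = 0.028); each count of members called higher was then 1. With the length and GC correction, B2m was at -0.021, Tapbp at -0.015, Psmb8 at -0.12 and Psmb10 at -0.0028, with the same values under the correction and a replicate block. With acoustics-on replicate 1 also left out, Tapbp was at -0.17, Psmb8 at -0.21 and Psmb10 at -0.23. Tapbp was at -0.027 with upper-quartile scaling, -0.023 with quantile normalisation and -0.22 with library weights, and Psmb8 was at -0.045 with quantile normalisation. With single libraries left out, the ranges were 0.44 to 0.55 for H2-K1, -0.17 to 0.16 for Tapbp, -0.10 to 0.30 for Psmb8 and -0.11 to 0.61 for Psmb10, and 0 to 1 members were called higher. The replicate block alone changed no call of the 9 genes (H2-K1 log2 difference 0.49). It called 133 genes higher and 46 lower over all genes, so the block moved the count of calls. Whether the replicate numbers pair the samples is not given.

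Ratios computed with the correction differed by 0.030 for Psmb9 to Psmb6 and -0.17 for B2m to the heavy chains, and with acoustics-on replicate 1 also left out, a setting added after seeing the data for the ratios, by -0.11 for B2m to the heavy chains and 0.10 for Tap1 to Tap2. With single libraries left out the ranges were -0.024 to 0.062 for B2m to the heavy chains, -0.30 to 0.086 for Tap1 to Tap2 and -0.36 to 0.0050 for Tapbp to Tap1.

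Counts of list members called, 0 in the main analysis, moved as follows. With quantile normalisation 1 constitutive catalytic gene was called higher (1.79% of all genes). With the correction 1 other class I gene, 1 regulator and 1 constitutive catalytic gene were called higher and 1 regulator lower (2.65% and 3.09% of all genes). With the correction and acoustics-on replicate 1 left out, 3 other class I genes, 2 regulators, 1 constitutive catalytic and 2 structural subunit genes were called higher and 7 regulators lower (5.22% and 6.88% of all genes). With library weights, 1 loading, 8 other class I, 1 regulator, 2 activator, 3 constitutive catalytic and 6 structural genes were called higher and 4 regulators lower (9.41% and 6.72% of all genes). With single libraries left out, 0 to 2 other class I, 0 to 1 activator, 0 to 1 constitutive catalytic and 0 to 1 structural genes were called higher, and 0 to 2 regulators lower (0.121% to 4.34% of all genes higher and 0.026% to 3.11% lower). Of the 5 nearest profiles, Bcap31 (-0.054), Cd81 (-0.019) and Cetn3 (-0.017) changed sign with the correction, with the same values under the replicate block. With acoustics-on replicate 1 also left out, Bcap31 (-0.087), Zc3hc1 (-0.011), Cd81 (-0.078), Slc25a11 (-0.026) and Cetn3 (-0.080) did. The default estimate of the library weights did not converge; it called 6 members higher and 1 lower (3254 and 3272 over all genes), and the gene-by-gene estimate was chosen after that result was seen. Over all genes, 14 to 1098 were called higher and 3 to 792 lower across the alternatives, against 175 and 67. Apart from the construction of each alternative, the cause of these shifts was not tested. Counting error, from the authors' mean counts, is at most 2.61% of the level for each of the 9 genes.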
